A study of Homo sapiens with 6 samples.

Results

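The nuclear-encoded genes of respiratory chain complexes I to V were examined in T47D, a long-established cell line from a luminal breast cancer, with and without the PI3 kinase inhibitor GDC-0941. Members were taken by gene symbol: NDUF genes for complex I (NDUFAF genes apart), SDHA to SDHD for complex II, UQCR genes and CYC1 for complex III, COX4 to COX8 genes for complex IV and the ATP5F, ATP5M and ATP5P genes for complex V. Pseudogenes and antisense transcripts were left out, and each gene was read by 1 probe set. This gave 85 of the 19775 genes measured: 8 NDUFAF assembly factors, 33 genes of complex I, 3 of complex II, 7 of complex III, 17 of complex IV and 17 of complex V. The symbol rule matches 96 protein-coding genes, and the other 11 were not analysed here.

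Cells treated with GDC-0941 for 6 hours (3 arrays) were compared with control cells whose agent is given as none (3 arrays). All cells were grown in DMEM with fetal bovine serum. The labels print the dose as 1 mM, a unit in which a micro sign may have been lost, and do not say whether controls received the solvent. Whether the replicates came from separate cultures is not stated either, and the p-values then cover only the spread among these arrays, part or all of which may be technical. Values are log2 RMA signals, which are relative to the other transcripts of the array, and each array's median lay between 7.34 and 7.38. Luminal markers (8 of 8 measured, among them ESR1, GATA3 and KRT8) had signals of 11.57 to 14.36, against 6.01 to 8.16 for the 2 basal keratins measured (of 4 basal markers), 4.95 to 6.80 for 4 of 5 immune markers and 5.57 to 9.57 for 3 endothelial markers. The 5 fibroblast markers had signals of 3.94 to 11.03, the brightest being COL1A1 (10.29 to 11.03), near the lowest luminal signal. Their mean was 7.69 to 7.84 on treated arrays and 7.57 to 7.71 on control arrays. Among them COL1A1 was higher after GDC-0941 (log2 difference 0.56, adjusted p = 6.53e-05 in limma) and the other 4 were not called. The part of such markers in the results below was not tested.

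The respiratory chain sits in the inner mitochondrial membrane. Complex I takes electrons from NADH and complex II from succinate, and both hand them to coenzyme Q. Complex III passes them to cytochrome c, complex IV uses them to reduce oxygen, and the proton gradient built on the way drives ATP synthesis by complex V. All subunits of complex II come from nuclear genes, while the other complexes mix nuclear-encoded subunits with a few that the mitochondrial genome encodes. Complex I is the largest of these assemblies, and the NDUFAF proteins help to build it without staying in the finished enzyme. Nuclear respiratory factor 1 (NRF1), the ETS factor GABPA and YY1 are known to act at promoters of many respiratory genes.

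Because the members share this promoter biology, their promoter windows were searched for a motif of each factor, on both strands: GCGCA, any base, then GCGC for NRF1, CCGGAAG for ETS factors and AAGATGGC for YY1. Matches in the windows printed here do not overlap. RefSeq windows (GRCh38.p14) of 300 bases, with 250 before and 50 after a transcription start, were found for 72 of the 85 members, 90 windows in all. The NRF1 letters stood in 17 of these 90 windows (18.9%), against 5.78% of all 35116 windows in the table and 7.38% of those of protein-coding genes. The ETS letters stood in 25.6% of member windows, against 10.3% of all windows and 12.8% of protein-coding ones. The YY1 letters stood in 15.6%, against 2.89% and 3.53%. At least one of the motifs stood in 25 of 50 windows (50%) of members that fell after GDC-0941, against 18 of 40 windows (45%) of the other members. A member with several windows is counted once for each, so these are not shares of genes. A match describes the letters and does not show binding. The windows printed here, 5′ to 3′ on the strand of the gene with motif letters in capitals, are those of the assembly factor with the largest fall (NDUFAF4, chr6:96897842-96898141, minus strand), of 2 complex I subunits that fell and hold 3 motifs each (NDUFA3, chr19:54102605-54102904, plus strand, and NDUFB4, chr3:120596086-120596385, plus strand), and of the flavoprotein subunit of complex II, which was not called (SDHA, chr5:218070-218369, plus strand).
NDUFAF4: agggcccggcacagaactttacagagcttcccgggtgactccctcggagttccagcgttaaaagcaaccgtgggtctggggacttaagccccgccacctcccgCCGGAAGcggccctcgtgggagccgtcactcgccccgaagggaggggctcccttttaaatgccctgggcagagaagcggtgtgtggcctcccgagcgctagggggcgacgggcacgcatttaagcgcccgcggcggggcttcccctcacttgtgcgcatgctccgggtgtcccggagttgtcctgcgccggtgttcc
NDUFA3: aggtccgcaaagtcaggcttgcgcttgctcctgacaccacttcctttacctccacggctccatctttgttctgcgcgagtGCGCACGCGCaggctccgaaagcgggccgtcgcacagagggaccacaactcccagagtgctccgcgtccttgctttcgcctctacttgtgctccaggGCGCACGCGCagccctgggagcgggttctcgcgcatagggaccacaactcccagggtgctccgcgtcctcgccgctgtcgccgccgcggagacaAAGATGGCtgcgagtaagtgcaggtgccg
NDUFB4: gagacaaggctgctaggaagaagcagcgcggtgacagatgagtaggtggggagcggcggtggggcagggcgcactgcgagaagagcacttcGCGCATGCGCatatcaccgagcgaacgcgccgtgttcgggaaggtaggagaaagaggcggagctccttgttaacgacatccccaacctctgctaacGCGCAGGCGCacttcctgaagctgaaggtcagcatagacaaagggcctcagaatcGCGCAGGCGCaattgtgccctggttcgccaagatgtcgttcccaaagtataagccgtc
SDHA: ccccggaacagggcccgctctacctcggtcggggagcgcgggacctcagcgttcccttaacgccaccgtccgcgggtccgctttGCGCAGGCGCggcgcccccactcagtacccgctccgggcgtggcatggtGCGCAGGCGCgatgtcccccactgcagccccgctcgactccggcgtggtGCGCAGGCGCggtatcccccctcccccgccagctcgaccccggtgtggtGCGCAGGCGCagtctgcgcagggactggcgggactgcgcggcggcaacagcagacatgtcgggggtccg
NDUFAF4 holds 1 ETS motif, NDUFA3 holds 2 NRF1 motifs and 1 YY1 motif, and NDUFB4 holds 3 NRF1 motifs. SDHA holds 4 NRF1 motifs, more than any of the genes printed beside it that fell. These windows were picked, partly by motif count, so a comparison among them does not describe the members. Over all member windows the NRF1 letters stood in 10 of 50 (20%) of members that fell and 7 of 40 (17.5%) of the others.

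Most respiratory chain genes had lower signals after GDC-0941, by small amounts. The arrays read RNA of whole cultures, so fewer cells that express a gene and less of its RNA per cell cannot be told apart. Of the 85 members, 47 fell and 1 rose at an adjusted p under 0.05 (limma, Benjamini-Hochberg over all 19775 genes), where 15.6% of all genes fell and 12.1% rose. The median log2 difference was -0.18, against -0.02 over all genes, and 73 of the 85 differences were below 0. In 65 members the 3 treated arrays all lay below the 3 controls, as in 24% of all genes. The classes were uneven. All 8 NDUFAF assembly factors fell (median -0.41), as did 24 of 33 complex I genes (median -0.22, with 1 that rose), 4 of 7 complex III genes (median -0.17), 7 of 17 complex V genes (median -0.16) and 4 of 17 complex IV genes (median -0.08). None of the 3 complex II genes measured was called (median -0.04, with 1 at an unadjusted p under 0.05, SDHD). The classes are described by these counts and medians, and the differences between classes were not tested.

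**Figure D1:**
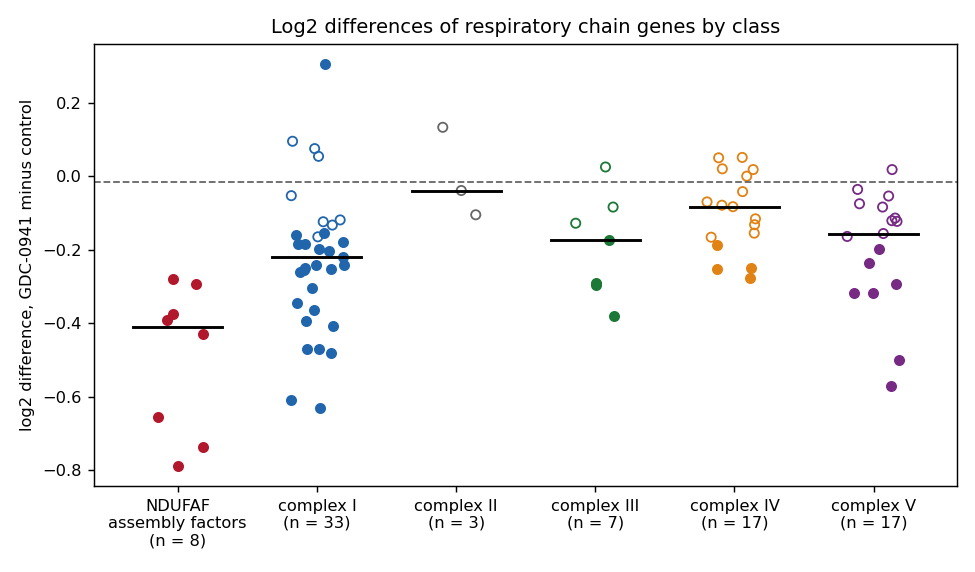
Log2 difference (GDC-0941 minus control, vertical axis) of each of the 85 genes by class, with filled points for genes called at an adjusted p under 0.05 in limma, open points for the others, a bar at each class median and a dashed line at the median of all genes (-0.02). The 8 assembly factors lie between -0.79 and -0.28 and the 3 complex II genes between -0.10 and 0.13.

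The scale of these falls depends on what the arrays are set against. When each array was centred on its 18 hybridisation control probe sets, which read labelled transcripts that the standard protocol adds to the hybridisation mix and so do not track the amount of RNA per cell, the median of all genes moved to 0.15 and only 12 members were called lower and 4 higher, where 4.53% of all genes were lower and 28.8% higher. The member median was then -0.02. This centring moves the difference of every gene by the same amount, so it cannot change the gap between the members and all genes. The 12 were NDUFAF1, NDUFAF2, NDUFAF4, NDUFAF8, NDUFS6, NDUFB7, NDUFV3, NDUFA13, NDUFA8, NDUFB10, ATP5MC1 and ATP5F1D. The 4 higher were NDUFA5, NDUFA10, NDUFB5 and SDHD. Every fall and rise given here is therefore relative to the other transcripts.

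The arrays of a group did not contribute evenly. Averaged over the 85 members, the deviation from the control mean was -0.17, -0.27 and -0.19 on the treated arrays (replicates 1, 2 and 3), against 0.00, -0.03 and 0.03 on the control arrays. GDC-0941 replicate 2 was the lowest treated array for 67 of 85 members, and control replicate 3 the highest control array for 59. The SD of all log2 values was 1.985 on GDC-0941 replicate 2, 2.045 and 2.017 on the other treated arrays, and 2.015, 2.016 and 2.041 on the control arrays. Without GDC-0941 replicate 2, 36 members fell (12.9% of all genes fell), and without control replicate 3 also 36 (12.5% of all genes). With the array SD as a covariate 52 fell (18.7% of all genes), an alternative chosen after seeing the data.

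**Figure D2:**
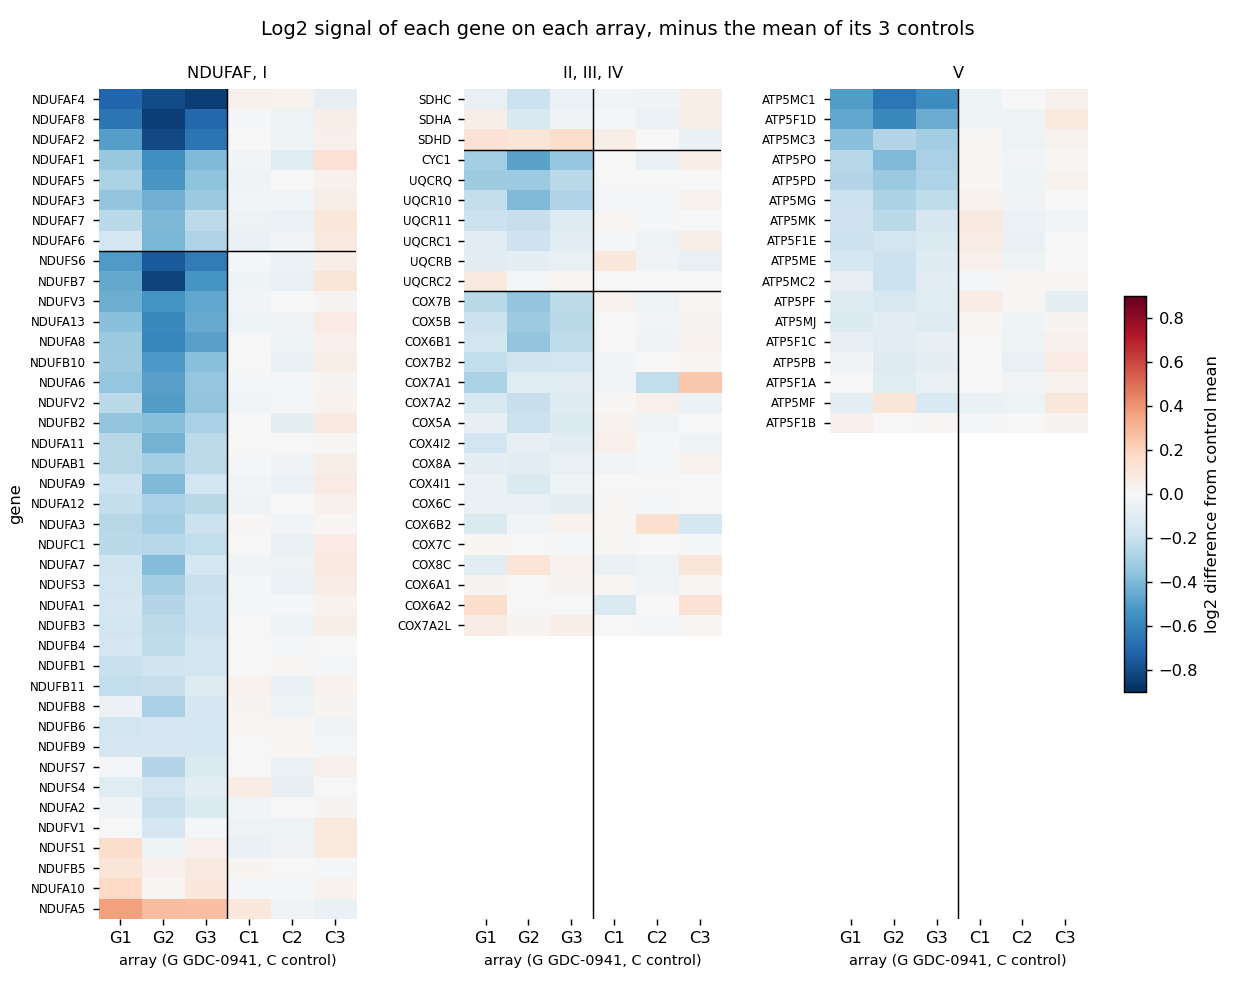
Log2 signal of every member (rows) on each of the 6 arrays (columns, GDC-0941 G1 to G3 left of control C1 to C3), minus the mean of that gene's 3 controls, with blue for lower and red for higher. The assembly factors and the upper rows of complex I are blue on all 3 treated arrays and darkest on G2, while most of complexes II and IV is pale.

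The NDUFAF assembly factors act at different steps of building complex I. NDUFAF3 and NDUFAF4 work as a pair on the part of the matrix arm that reduces coenzyme Q, NDUFAF5 (with its partner NDUFAF8) and NDUFAF7 modify core subunits there, NDUFAF1 serves the early membrane arm, and NDUFAF2 acts late. NDUFAF4 had signals of 9.22, 9.13 and 9.09 under GDC-0941, against 9.97, 9.97 and 9.86 in controls, a 1.73-fold fall (log2 difference -0.79 ± 0.061 SE, adjusted p = 4.23e-06 in limma). NDUFAF8 had 10.09, 9.90 and 10.05 under GDC-0941, against 10.74, 10.71 and 10.81 in controls (1.67-fold lower, log2 difference -0.74 ± 0.065 SE, adjusted p = 9.97e-06 in limma). NDUFAF2 had 10.08, 9.77 and 9.92 under GDC-0941, against 10.58, 10.54 and 10.63 in controls (1.58-fold lower, adjusted p = 6.49e-05 in limma). In each of these 3 genes the highest treated array lay clearly below the lowest control. NDUFAF1 had 9.76, 9.55 and 9.70 under GDC-0941, against 10.07, 9.99 and 10.23 in controls (1.35-fold lower, adjusted p = 0.00121 in limma). The other 4, NDUFAF5, NDUFAF3, NDUFAF7 and NDUFAF6, fell by 0.39, 0.37, 0.29 and 0.28 on the log2 scale, again with no overlap between the groups. The smallest of these calls, NDUFAF6, had an adjusted p of 0.0118. All 8 were called lower with any 1 array left out. At an adjusted p under 0.01 (10.5% of all genes lower), or with the mean of all probe sets of a gene (15.3%), 7 were. The count was also 7 with unmarked probe sets first (identifiers that carry no mark for reading several transcripts, 13.8% of all genes lower).

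Other proteins that help to assemble complex I were mixed. Of 12 such genes outside the NDUFAF series, 2 fell (16.7%) and 2 rose (median -0.08). Over all genes 15.6% fell and 12.1% rose, so the share that fell is near that of all genes at any brightness. It is below that of genes of like brightness: the signals of the list ran from 9.06 to 11.91. Of all genes 28.6% fell at a mean signal of 9 to 11, and 30.2% at 11 to 12. TMEM126A, needed for the membrane arm, fell by 0.49, and LYRM2 rose by 0.27 on the log2 scale.

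Complex I has a matrix arm, where NADH is oxidised, and a membrane arm that pumps protons. Of the 14 matrix arm genes measured 8 fell and 1 rose (median -0.23), and of the 18 membrane arm genes 15 fell and none rose (median -0.20). The remaining member, NDUFAB1, the mitochondrial acyl carrier protein found in both arms, fell by 0.26. The largest fall was that of NDUFS6, a zinc-binding subunit of the matrix arm, with 11.66, 11.42 and 11.54 under GDC-0941, against 12.16, 12.12 and 12.23 in controls (1.55-fold lower, log2 difference -0.63 ± 0.069 SE, adjusted p = 4.51e-05 in limma). NDUFB7, a membrane arm subunit, had 8.07, 7.69 and 7.998 under GDC-0941, against 8.48, 8.46 and 8.63 in controls (1.52-fold lower, adjusted p = 0.000393 in limma). The groups did not overlap in either gene. Of the other complex I genes that fell, NDUFV3 in the matrix arm (-0.48) and NDUFA13 (-0.47), NDUFA8 (-0.47) and NDUFB10 (-0.41) in the membrane arm followed. The remaining falls ran down to that of NDUFB9 (-0.16), and in all 24 genes that fell the treated arrays lay below the controls. NDUFB8, NDUFS4 and NDUFA2 also lay below their controls on every treated array (-0.17, -0.12 and -0.12) without being called. The fall of NDUFB7 rests on 1 of its 2 probe sets, as the other, with a mean signal of 5.78, differed by 0.07 without being called.

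The accessory (supernumerary) subunits of complex I and the core that carries its redox centres gave different counts. Of 28 accessory genes 22 fell and 1 rose, with a median of -0.24. Of the 5 nuclear-encoded core genes measured, 2 fell and none rose, with a median of -0.13, where 15.6% of all genes fell. The core genes that fell were NDUFV2 (log2 difference -0.36, adjusted p = 0.00197 in limma) and NDUFS3 (-0.22, adjusted p = 0.0174 in limma). NDUFV1, which binds NADH and the flavin, had 12.04, 11.88 and 12.01 under GDC-0941, against 11.99, 11.99 and 12.11 in controls (log2 difference -0.05 ± 0.065 SE, adjusted p = 0.617 in limma). NDUFS1, the largest iron-sulphur subunit, had 10.94, 10.74 and 10.83 under GDC-0941, against 10.72, 10.75 and 10.87 in controls (log2 difference 0.05 ± 0.068 SE, adjusted p = 0.638 in limma). NDUFS7, which holds the last iron-sulphur centre before coenzyme Q, had 11.14, 10.90 and 11.04 under GDC-0941, against 11.16, 11.11 and 11.21 in controls (log2 difference -0.13, adjusted p = 0.191 in limma). The groups overlapped in all 3 of these genes, and a p that misses the threshold does not show that their levels were the same.

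The 1 member called higher was NDUFA5, an accessory subunit of the matrix arm. It had 11.35, 11.25 and 11.25 under GDC-0941, against 11.07, 10.95 and 10.92 in controls, a 1.24-fold rise (log2 difference 0.31 ± 0.062 SE, adjusted p = 0.00296 in limma). All treated arrays lay above all controls. NDUFB5 also lay above its controls on every treated array (difference 0.08) without being called, and NDUFA10 overlapped its controls (difference 0.10). The call of 24 lower complex I genes became 15 without GDC-0941 replicate 2 and 15 without control replicate 3.

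**Figure D3:**
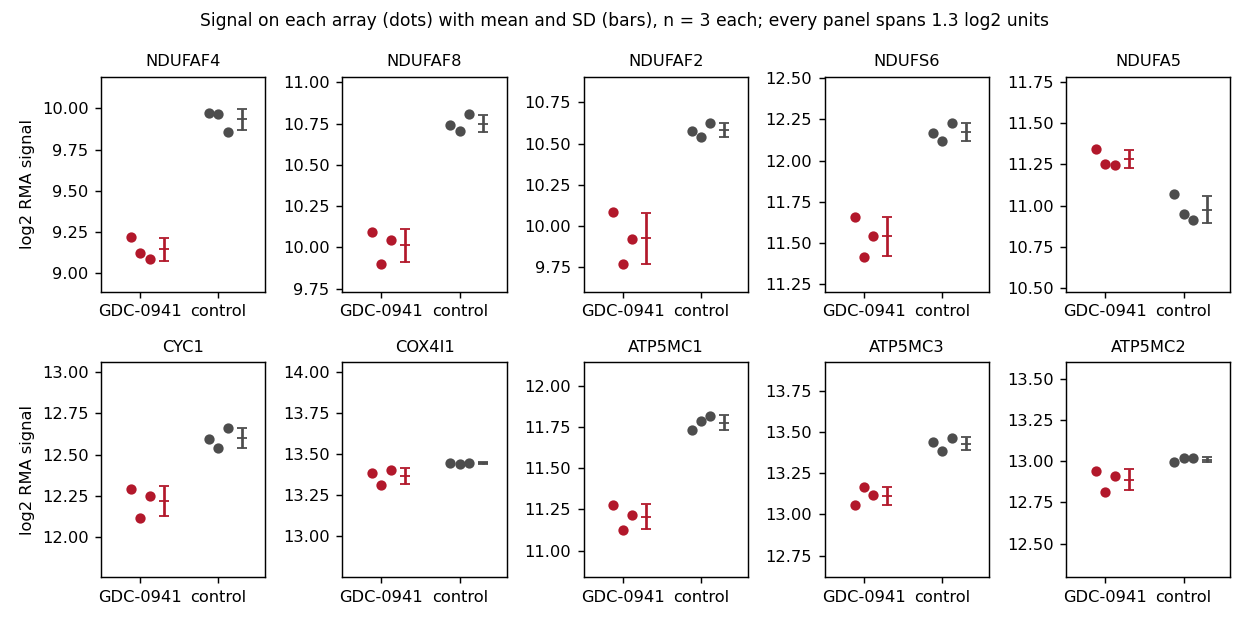
Log2 RMA signal on each array (dots, GDC-0941 left of control) with the mean and SD (bars, n = 3 each) of 10 genes, each panel spanning the same log2 range. NDUFAF4, NDUFAF8, NDUFAF2, NDUFS6 and ATP5MC1 show the widest gaps, NDUFA5 is higher under GDC-0941, and COX4I1 and ATP5MC2 lie close to their controls.

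Complex II, which is also an enzyme of the citric acid cycle, was measured through 3 genes. SDHA, the flavoprotein that oxidises succinate, had 11.97, 11.78 and 11.88 under GDC-0941, against 11.90, 11.87 and 11.98 in controls (log2 difference -0.04 ± 0.064 SE, adjusted p = 0.723 in limma). SDHC and SDHD anchor the enzyme in the membrane. SDHC had 12.14, 12.01 and 12.15 under GDC-0941, against 12.18, 12.17 and 12.27 in controls (-0.10, adjusted p = 0.249 in limma). SDHD had 12.29, 12.27 and 12.32 under GDC-0941, against 12.22, 12.16 and 12.10 in controls (0.13, adjusted p = 0.112 in limma). SDHC lay below and SDHD above its controls on every treated array, but neither was called. The sign of SDHC depended on the processing: it was 0.07 with hybridisation control centring, where SDHA had 0.13 and SDHD 0.30, 0.10 with unmarked probe sets first (identifiers that carry no mark for reading several transcripts) and 0.011 with the mean of all probe sets. Of 11 other citric acid cycle genes 3 fell and 1 rose (median -0.04), where 15.6% of all genes fell and 12.1% rose. IDH3A, a subunit of the NAD-dependent isocitrate dehydrogenase, was 1.92-fold lower (log2 difference -0.94, adjusted p = 1.83e-06 in limma). SUCLG2, a subunit of succinyl-CoA ligase, was 1.27-fold higher.

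In complex III, CYC1 (cytochrome c1, which passes electrons to cytochrome c) had 12.29, 12.12 and 12.25 under GDC-0941, against 12.60, 12.54 and 12.66 in controls (1.3-fold lower, log2 difference -0.38 ± 0.064 SE, adjusted p = 0.000892 in limma). UQCRQ, a small accessory subunit, had 12.40, 12.39 and 12.48 under GDC-0941, against 12.71, 12.72 and 12.72 in controls (1.23-fold lower, adjusted p = 0.00162 in limma). UQCR10 and UQCR11, also small subunits, fell by 0.29 and 0.17 on the log2 scale. The large core protein genes were not called: UQCRC1 had 11.90, 11.80 and 11.89 under GDC-0941, against 11.97, 11.95 and 12.05 in controls (-0.13, adjusted p = 0.136 in limma), and UQCRC2 differed by 0.03. UQCRB lay below its controls on every treated array (-0.08) without being called.

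Among the classes with calls, complex IV had the median nearest to 0. COX7B, a small subunit, had 11.76, 11.65 and 11.76 under GDC-0941, against 12.03, 11.96 and 12.01 in controls (1.21-fold lower, adjusted p = 0.00353 in limma). This fall rests on the brighter of its 2 probe sets: the other, with a mean signal of 6.21, differed by 0.17 without being called, and with the mean of both the difference was -0.05 (adjusted p = 0.608 in limma). COX5B had 11.98, 11.84 and 11.92 under GDC-0941, against 12.17, 12.14 and 12.19 in controls (1.19-fold lower, adjusted p = 0.00604 in limma), and COX6B1 fell by 0.25. Of the 4 probe sets of COX5B 3 were called lower, and the dimmest, with a mean signal of 7.93, differed by 0.002. The fourth call, COX7B2 (-0.19), is a tissue-restricted isoform with a mean signal of 7.46, near the median of the array. COX4I1, the subunit through which ATP inhibits the enzyme, had 13.38, 13.31 and 13.40 under GDC-0941, against 13.45, 13.44 and 13.45 in controls (-0.08, adjusted p = 0.345 in limma). COX5A had 12.74, 12.61 and 12.68 under GDC-0941, against 12.84, 12.78 and 12.81 in controls (-0.13, adjusted p = 0.117 in limma). The other complex IV genes not called differed by -0.17 (COX7A1) to 0.05 (COX7A2L, a factor of supercomplex assembly, above its controls on every treated array). Without the 6 tissue-restricted isoforms, 3 of 11 genes fell and the median stayed at -0.08. Among those isoforms COX8C (3.79 to 4.02) and COX7A1 (6.10 to 6.63) had the dimmest signals.

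Proteins that assemble complex IV insert its haem and copper and mature its subunits. Of 26 such genes 14 fell and 1 rose (median -0.20), where 15.6% of all genes fell and 12.1% rose. SCO2, a copper chaperone for the catalytic core, had 8.87, 8.88 and 8.98 under GDC-0941, against 9.72, 9.74 and 9.83 in controls (1.8-fold lower, log2 difference -0.85 ± 0.060 SE, adjusted p = 2.31e-06 in limma), and COA4 was 1.47-fold lower. Of 13 assembly genes of complexes II and III 6 fell and 1 rose (median -0.17), led by UQCC3 (1.47-fold lower) and UQCC5 (1.23-fold lower). Of 7 genes for complex V assembly and inhibition 1 fell (14.3%, near the share of all genes), TMEM70 (1.37-fold lower), and the median was 0.03.

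Complex V consists of a catalytic F1 head with its central stalk and a membrane part, Fo, with the peripheral stalk. Of the 5 genes of the head and central stalk 1 fell (20%, median -0.08), where 15.6% of all genes fell. Of the 12 genes of Fo and the peripheral stalk 6 fell (50%, median -0.18). ATP5F1A, the alpha subunit, had 13.75, 13.63 and 13.68 under GDC-0941, against 13.74, 13.72 and 13.77 in controls (-0.05, adjusted p = 0.555 in limma). ATP5F1B, the catalytic beta subunit, had 13.94, 13.89 and 13.90 under GDC-0941, against 13.87, 13.89 and 13.91 in controls (0.02, adjusted p = 0.862 in limma). The gamma subunit gene ATP5F1C had 13.24, 13.21 and 13.24 under GDC-0941, against 13.32, 13.27 and 13.35 in controls (-0.08, adjusted p = 0.309 in limma). The head gene that fell was ATP5F1D, the delta subunit of the central stalk, with 10.84, 10.73 and 10.86 under GDC-0941, against 11.27, 11.26 and 11.40 in controls (1.41-fold lower, adjusted p = 0.000117 in limma). Both of its probe sets were called lower.

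The membrane ring of complex V is made of subunit c, which the genes ATP5MC1, ATP5MC2 and ATP5MC3 encode with the same mature protein behind different import sequences. ATP5MC1 had 11.28, 11.12 and 11.21 under GDC-0941, against 11.73, 11.78 and 11.82 in controls (1.49-fold lower, log2 difference -0.57 ± 0.060 SE, adjusted p = 3.36e-05 in limma). ATP5MC3 had 13.06, 13.16 and 13.12 under GDC-0941, against 13.44, 13.39 and 13.46 in controls (1.25-fold lower, adjusted p = 0.00139 in limma), and all 3 of its probe sets were called lower. ATP5MC2 had 12.94, 12.81 and 12.91 under GDC-0941, against 12.99, 13.02 and 13.02 in controls (-0.12, adjusted p = 0.142 in limma). The treated arrays lay below the controls in all 3 genes. The difference between ATP5MC1 and ATP5MC2 within an array was -1.66 to -1.70 under GDC-0941, against -1.20 to -1.26 in controls, a shift of -0.45 with no overlap. An exact two-sided permutation test gave p = 0.1 for this shift and for each of the other 2 pairs, the smallest p that 3 against 3 arrays allow. ATP5MC3 minus ATP5MC2 was 0.118 to 0.350 under GDC-0941, against 0.368 to 0.447 in controls. ATP5MC1 minus ATP5MC3 was -1.780 to -2.040 under GDC-0941, against -1.602 to -1.710 in controls. The groups lay closer together in these 2 pairs, which the equal p does not show. Other Fo and stalk genes that fell were ATP5PO, which links the peripheral stalk to the head (-0.32), ATP5PD (-0.29), ATP5MG (-0.24) and ATP5MK (-0.20). The other probe sets of ATP5PO (mean signals 11.85 and 7.24) differed by -0.06 and 0.04, and that of ATP5PD (8.79) by 0.012, without being called. In ATP5MG 3 of 4 probe sets were called lower, and the dimmest (10.95) differed by -0.008. The only probe set of ATP5MK was not called in the fit over all 54613 probe sets (adjusted p = 0.0508 in limma). The other Fo and stalk genes, ATP5ME, ATP5PF, ATP5MJ, ATP5PB and ATP5MF, differed by -0.16 to -0.04 without being called, with no overlap between the groups in ATP5ME, ATP5PF and ATP5MJ. ATP5MF was read by 1 probe set with a mean signal of 7.27, near the median of the array, so its value says little. In the head, ATP5F1E (-0.16) was likewise below its controls on every treated array without being called.

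The share of genes called lower moved with the brightness of the probe set. The probe sets of the NDUFAF genes had mean signals of 8.91 to 10.62 (median 9.73), against class medians of 11.81 to 13.11 for the complexes. Among all genes 8.32% were called lower at a mean signal under 9, 28.6% at 9 to 11, 30.2% at 11 to 12, 26.9% at 12 to 13 and 15.9% above 13. At 9 to 11, 7 of 7 NDUFAF genes fell (median -0.43), and 5 of 6 complex I genes (median -0.25). At 11 to 12, 10 of 14 complex I genes fell (median -0.26), 2 of 3 of complex IV (median -0.25) and 2 of 2 of complex V (median -0.54), with 0 of 1 each of complexes II and III. At 12 to 13, 4 of 5 complex III genes fell (median -0.29), 4 of 8 of complex I (median -0.17), 1 of 3 of complex IV (median -0.16) and 1 of 4 of complex V (median -0.14), with 0 of 2 of complex II. The order of the classes thus differed between bands. Above 13, 4 of 4 complex I genes fell (median -0.18), against 4 of 10 complex V genes (median -0.14), 0 of 5 complex IV genes (median -0.07) and 0 of 1 of complex III. Under 9 lay 1 NDUFAF gene and 1 complex I gene, which both fell, 6 complex IV genes, of which 1 fell, and 1 complex V gene, which was not called. The part of brightness in the differences between classes was not tested. The lists of other genes are set beside the share over all genes at any brightness, which is not matched to their signals.

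**Figure D4:**
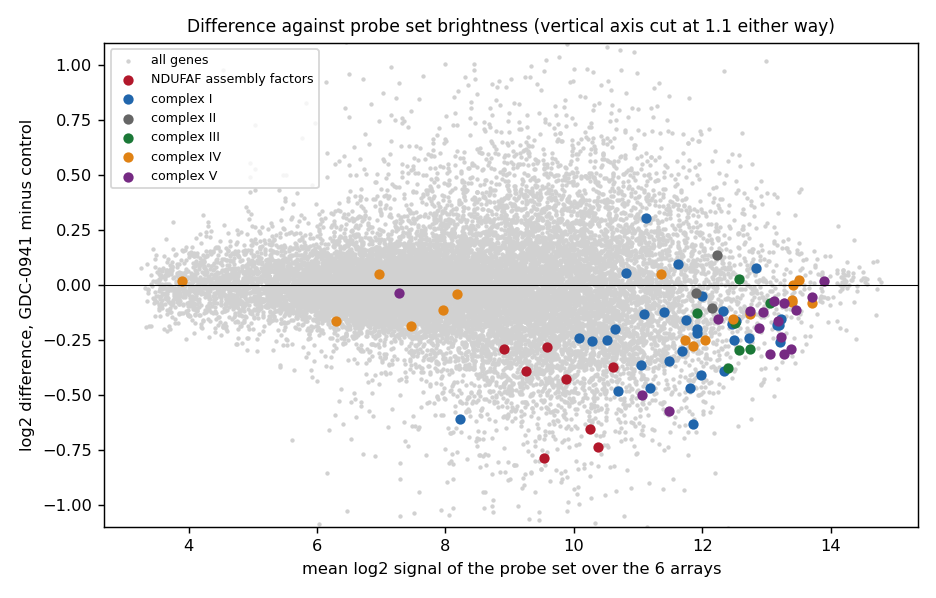
Log2 difference (GDC-0941 minus control, vertical axis, with the most extreme genes cut off) against the mean log2 signal of the probe set over the 6 arrays (horizontal axis), with all genes in grey and the members coloured by class. The NDUFAF genes lie between 8.91 and 10.62 on the signal axis and most subunit genes to the right of them.

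Of the 48 members with several probe sets, 25 fell on the chosen one, and in 10 of these a further probe set was called lower in the fit over all 54613 probe sets. Over all 165 probe sets of the members 55 were called lower (33.3%) and 3 higher, against 9.89% lower among all probe sets. Some members that fell in the fit over genes were not called on their chosen probe set here (limma). They were NDUFB6 (adjusted p = 0.0758), NDUFB9 (0.0834), NDUFB11 (0.0663), UQCR11 (0.0641) and ATP5MK (0.0508). UQCR11 had a further probe set called lower. Only in NDUFB1 was a further probe set called the opposite way: its bright probe set fell by 0.18 and its other rose by 0.26. Further probe sets of several other members that fell also lay above 0 without being called, among them those of COX7B (0.17), NDUFB7 (0.07), NDUFB6 (0.06) and NDUFAF6 (0.04). NDUFS1, not called on its chosen probe set, had another called higher by 0.38 at a mean signal of 7.32. The fall of NDUFAF4 and that of NDUFAF8 each rest on the brightest probe set, since the others differed by -0.11 for NDUFAF4 and by -0.18 and -0.22 for NDUFAF8 without being called.

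Genes that stand next to the complexes were mixed, beside the 15.6% of all genes that fell and the 12.1% that rose. The mobile carriers are cytochrome c and coenzyme Q: of 15 genes for cytochrome c and for coenzyme Q synthesis 7 fell and 2 rose (median -0.09). HCCS, which attaches haem to cytochrome c, was 1.6-fold lower, and COQ8A, a kinase-like protein of coenzyme Q synthesis, was 1.42-fold higher. The cytochrome c gene itself, CYCS, was 1.34-fold lower (log2 difference -0.43, adjusted p = 0.000108 in limma). Of 8 other enzymes that feed electrons into coenzyme Q 2 fell, ETFB (1.4-fold lower) and DHODH (1.37-fold lower). Of 13 regulators of respiratory genes 4 fell and 2 rose (median -0.08). PPRC1, a coactivator of the PGC-1 family, had 9.19, 8.93 and 9.05 under GDC-0941, against 9.90, 9.77 and 9.90 in controls (1.74-fold lower, adjusted p = 1.25e-05 in limma), and GABPA was 1.26-fold higher. Of the other factors whose motifs were searched, NRF1 was 1.15-fold lower (log2 difference -0.21, adjusted p = 0.0359 in limma) and YY1 1.21-fold higher (log2 difference 0.28, adjusted p = 0.00871 in limma).

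The mitochondrial genome encodes further subunits of complexes I, III, IV and V. Of 7 measured (of 13), 3 were called higher and none lower in limma, where 12.1% of all genes were higher and 15.6% lower. The counts were the same at an unadjusted p under 0.05, and the median log2 difference was 0.11. MT-ND2 of complex I had 14.21, 14.32 and 14.25 under GDC-0941, against 14.02, 13.98 and 13.97 in controls (1.2-fold higher, adjusted p = 0.00354 in limma). MT-CO3 of complex IV had 11.02, 11.72 and 11.02 under GDC-0941, against 10.87, 10.38 and 9.91 in controls (1.83-fold higher, log2 difference 0.87 ± 0.220 SE, adjusted p = 0.0106 in limma). The groups did not overlap in either, but the MT-CO3 arrays were widely spread within both groups. The third was the complex V subunit gene MT-ATP6, higher by 0.21. MT-ND6, MT-CO1, MT-CO2 and MT-ND4 were not called, with differences of -0.08, 0.03, 0.11 and 0.10. The signals of MT-CO1, MT-CO2 and MT-ND4 (14.36 to 14.81) reach the highest value of the table, where probes may be saturated and a difference understated, which was not tested.

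**Figure D5:**
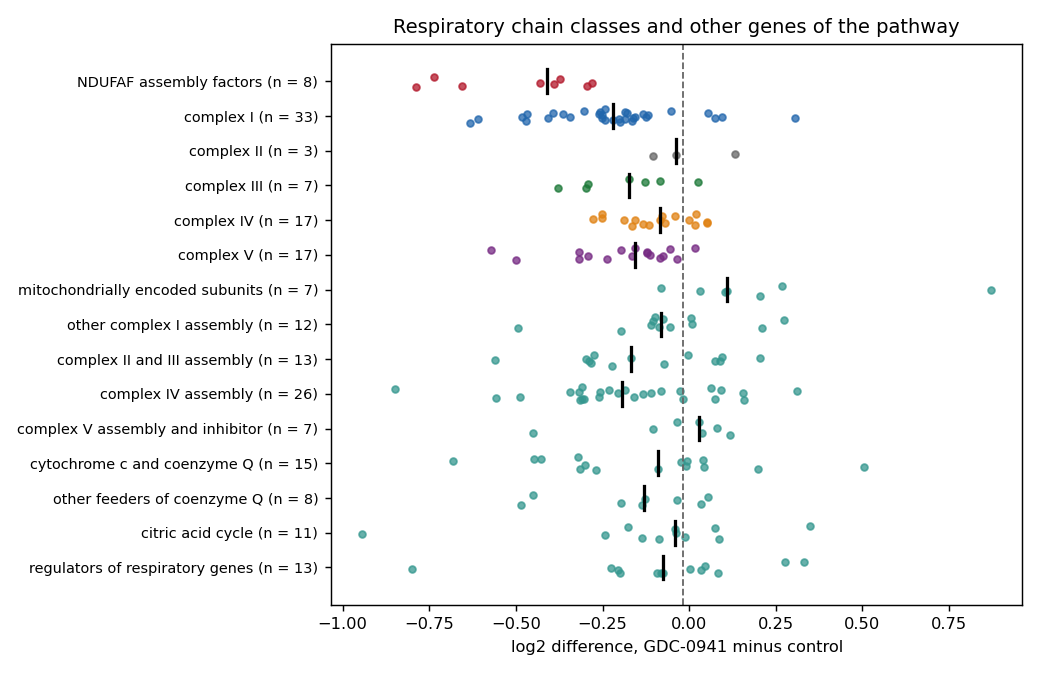
Log2 difference (GDC-0941 minus control, horizontal axis) of each gene (points) in the 6 respiratory chain classes and in 9 lists of other genes of the pathway, with a bar at each median and a dashed line at the median of all genes. The NDUFAF genes have the lowest median (-0.41) and the mitochondrially encoded subunits the highest (0.11).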

How the data were processed

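T47D RNA was measured on 6 Affymetrix arrays, 3 per group, from 6 ug of total RNA each, per the labels' protocols. The deposited table holds log2 values made by the authors with RMA, per the submitters' processing notes, and their range (3.00 to 14.81) fits that scale. The version of RMA and the chip definition are not stated in the sources used. Of 54613 probe sets that are not controls, 41091 name 1 gene in the platform annotation and 1801 several. Symbols of 41037 were updated through the Entrez identifier with RefSeq (GRCh38.p14). A gene was read by the brightest of its probe sets by mean over all arrays, with no filter on dim signals.

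The comparison used limma 3.58.1 under R 4.3.3 (a linear model per gene with eBayes, two-sided, GDC-0941 minus control, Benjamini-Hochberg over all genes, adjusted p under 0.05), after the fit was tested on simulated data. The median SE of a log2 difference was 0.0641, and the number of arrays limits the precision. Members and lists were chosen with earlier results of these data known. Values by array are given for the 2 largest called changes of each class, members called higher and a fixed list of core members. In each list of other genes the 2 largest called changes are named, and further genes of some lists are given as well. Members named beyond these are given to account for the class. Alternatives tried were the replicate block, arrays left out, other normalizations, variance models, a level filter, other probe set rules, an adjusted p under 0.01 and, added later, array spread. Figures used matplotlib 3.10.9.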

Additional observations from a re-analysis of the deposited data

How the results depend on the processing

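The count of 47 members called lower stayed within 1.5 times except when arrays were centred on hybridisation controls, where it was 12. With any 1 array left out it was 36 to 44 (12.5% to 16.1% of all genes), and 36 to 43 of these were among the 47. With hybridisation control centring the lower calls (limma) were 4 for the NDUFAF genes, 6 for complex I, 0 for complex III (1 at an unadjusted p under 0.05), 0 for complex IV (also 0) and 2 for complex V. With any 1 array left out the complex I count was 15 to 22. At an adjusted p under 0.01 (10.5% of all genes lower) complex I had 14 and complex IV 2. With a variance trend and robust estimation (17.2% of all genes lower), or with array weights (26.2%), complex IV had 7 and complex V 12. The count of members called higher was 2 with quantile normalization again, a variance trend, the level filter (7 members left out), unmarked probe sets first, the mean of all probe sets and array spread as a covariate, 3 with array weights and 4 with hybridisation control centring. The replicate block (14.1% of all genes lower) gave 43 lower and 1 higher, 8 of the NDUFAF genes and 21 of complex I, but arrays with the same number share only that number: their deviations from the group means correlated at -0.346, 0.187 and -0.017 (replicates 1, 2 and 3), and in 0 of 3 pairs was the correlation best with the own number.

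Over the 27 members with values by array, 432 comparisons with an alternative left direction and call as they were in 393, ended a call in 7, added one in 13 and turned the sign in 19. With hybridisation control centring the sign turned for ATP5F1A (0.116), ATP5F1C (0.085), ATP5MC2 (0.047), COX4I1 (0.091), COX5A (0.037), NDUFS7 (0.036), NDUFV1 (0.116), SDHA (0.130), SDHC (0.065) and UQCRC1 (0.042). It turned with unmarked probe sets first for ATP5MC2 (0.023), COX4I1 (0.020), COX5A (0.007), COX5B (0.002), NDUFB7 (0.065) and SDHC (0.100), with the mean of all probe sets for SDHC (0.011), with array weights for NDUFV1 (0.000) and without GDC-0941 replicate 2 for SDHA (0.008, with -0.084 to 0.008 over the arrays left out). NDUFB7 and COX5B had been called lower, the other members had not. Hybridisation control centring moved every difference up by the same amount. The rule of unmarked probe sets first read a different, dimmer probe set in the members listed for it. Why readings differ between probe sets or between arrays was not tested. Signals near background limit the dimmest isoforms of complex IV and may limit ATP5MF of complex V, since RMA values carry no detection call.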
